A study of Mus musculus with 12 samples.

Results

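Pancreatic islets of male mice that had lost Rnf20 were compared here with islets of male controls across all expressed genes. The comparison rested on 6 libraries of bulk RNA, 3 per group, out of 12 libraries of both sexes in the series. The knockouts carried the genotype Rnf20 F/F; Pdx1 Cre ER, in which a tamoxifen-activated Cre recombinase is driven by the promoter of Pdx1, a gene of beta cells and of some other islet and duodenal cells. The controls were labelled Rnf20 Flox Control, and since no Cre is named for them, an effect of the Cre transgene and an effect of losing Rnf20 cannot be told apart. All mice, controls included, had received 5 gavages of tamoxifen at 150 ug per g of body weight from the age of 4 weeks, and islets were hand-picked after collagenase digestion. The age at islet isolation and the number of animals behind a library were not given in the labels, so the p-values measure the spread between these libraries, which may be technical. Of 24474 genes in the table for males, and 26001 in the tables of both sexes, 18010 reached a mean normalized count of 10 over the 6 libraries and entered the test.

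Rnf20 is a ubiquitin ligase that works as a pair with Rnf40 and attaches a single ubiquitin to histone H2B in the bodies of transcribed genes. This mark accompanies elongating RNA polymerase and favours methylation of histone H3 at lysines 4 and 79. The title of the series describes Rnf20 as a partner of Islet-1, a LIM homeodomain factor that works with Ldb1 in islet cells. Beta cells take up glucose through Slc2a2 and couple its metabolism to channel closure, calcium entry and the release of insulin.

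The libraries held 19759712 to 56086810 assigned reads, and male control 2 was both the shallowest and the sparsest. No reads were found in 1596 of the tested genes in control 2, against 59 to 200 in the other 5 libraries. Had the other 5 libraries been as shallow as control 2, 104 to 289 of the tested genes were expected without reads in them. On log2 values control 2 lay by itself on the first principal component, which took 59.8% of the variance, at 191.3 against -55.23 to -6.48 for the rest. The second component (16.6%) held controls 1 and 3 at -67.6 and -56.05 and the knockouts at 16.12 to 59.32, with control 2 at 18.71, among the knockouts. The libraries also differed in acinar genes of the surrounding exocrine pancreas, which took 0.526% to 7.7% of reads in controls and 1.22% to 5.92% in knockouts. Reads of the 18S ribosomal RNA gene made up 1.78%, 2.15% and 1.71% in the controls and 4.31%, 1.37% and 4.17% in the knockouts. The part that exocrine tissue, ribosomal RNA and the sparse library had in the results below was not tested beyond the values given beside them.

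**Figure D1:**
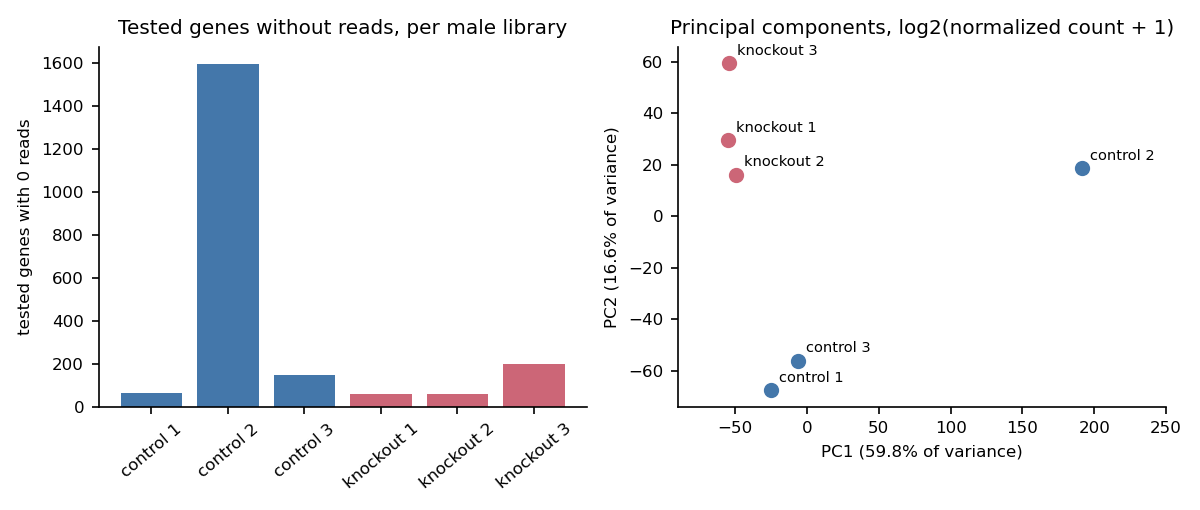
Left, the number of tested genes with 0 reads in each male library. Right, the 6 libraries on the first and second principal components of log2(normalized count + 1), with controls in blue and knockouts in red. Control 2 had 1596 such genes and stands at 191.3 on the first component, apart from the other 5 libraries.

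The targeted gene was lower in every knockout library. Rnf20 (ENSMUSG00000028309, GRCm39 chromosome 4, 49632006 to 49656887) had normalized counts of 3812, 3409 and 4058 in controls 1 to 3 and of 1519, 1373 and 1436 in knockouts 1 to 3. The groups did not overlap, and the knockouts lay closer together than the controls. The deposited counts cover the whole gene, so reads from parts outside the deleted exons were included. The fall was 2.6-fold, or -1.38 ± 0.12 (SE) on the log2(normalized count + 1) scale used for every fold change here, with an adjusted p of 7.91e-04 in limma-trend with Benjamini-Hochberg adjustment over all tested genes. In bulk samples of this kind, fewer cells of a type and less RNA per cell cannot be told apart. The other subunit of the ligase, Rnf40, was not called, with 3232, 2690 and 2873 in controls and 3405, 4023 and 3359 in knockouts (adjusted p 0.175). Among 24 tested genes of H2B ubiquitination and deubiquitination, 3 fell and 2 rose, against 7.09% lower and 6.08% higher among all tested genes. Besides Rnf20, the PAF complex member Leo1 and the SAGA module member Eny2 fell by 0.69 and 0.58 on the log2 scale, and the PAF complex partner Rtf1 and the deubiquitinase Usp7 rose by 0.49 and 0.51. Rtf1 was called in 0 of the 6 fits that left a library out, and not in edgeR (adjusted p 0.0503). Usp7 and Eny2 were each called in 2 of those 6 fits. Rnf20 kept its call whichever library was left out, but without control 3 or without knockout 1 the list held 1 lower and 0 higher, without control 1 or knockout 2 it held 0 higher, and without control 2 or knockout 3 it held 1 higher.

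Across all genes, 2372 of 18010 (13.2%) differed between knockout and control libraries at an adjusted p below 0.05 in limma-trend. Of these, 1095 (6.08% of all tested) were higher and 1277 (7.09%) were lower, and 880 (4.89%) differed by at least 2-fold, 364 upwards and 516 downwards. The median log2 fold change of all tested genes was 0.06. Knockout and control values did not overlap in 35.5% of all tested genes, and in all 2372 called genes. Without control 2, 2298 genes were called (12.8%), 1166 higher (6.47%) and 1132 lower (6.29%), and 1849 genes were called in both fits, which is 78.0% of the first list and 80.5% of the second, all with the same sign. When each library was left out in turn, 782 of the called genes kept their call in all 6 fits, 300 higher and 482 lower, whereas 101 kept it in none. The count fell to 814 without knockout 1 and to 1414 without control 3, the largest losses of the 6.

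The largest falls were those of G6pc2, Mfsd6l, Vip, B830017H08Rik and Gm38070, among genes at or above the median level that were also called without control 2. G6pc2 (chromosome 2, 69041417 to 69058185), the islet glucose-6-phosphatase catalytic subunit, had 82995, 59521 and 76954 normalized counts in controls and 7208, 6391 and 7359 in knockouts. The lowest control was several times above the highest knockout, and the fall was 10.4-fold (log2 -3.38 ± 0.15, adjusted p 3.24e-05). Mfsd6l, a membrane protein of the major facilitator family, went from 914.4, 1076 and 922.2 to 88.96, 92.44 and 107.5. B830017H08Rik (chromosome 16, 17650985 to 17652872), an unnamed locus, went from 16567, 23030 and 21049 to 1985, 2421 and 2446. These falls were 9.99-fold and 8.8-fold with little spread inside each group, and both genes, like G6pc2, were called in each of the 6 fits that left a library out. The neuropeptide gene Vip spread more widely, with 458.5, 786.4 and 1338 in controls and 106.8, 148.6 and 40.2 in knockouts (log2 -3.17 ± 0.52). Gm38070, a transcript of chromosome 1 that still awaits experimental evidence, had 63737 in control 2 against 19798 and 25547 in the other controls and 2947 to 5110 in knockouts. The rest of the 12 largest falls were the orphan nuclear receptor gene Nr4a2 (log2 -2.80), the chloride channel gene Ttyh1 (-2.79), the cytochrome c oxidase subunit Cox6a2 (-2.69), the poly(A) polymerase Tent5a (-2.68), the cAMP-response factor Crem (-2.54), the TNF receptor family member Tnfrsf9 (-2.48) and the secretory-cell transcription factor Bhlha15 (-2.48).

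Among genes at or above the median level that were also called without control 2, the 12 largest rises began with Rcor2 (chromosome 19, 7244690 to 7252590), a corepressor of the CoREST family. Some less expressed genes described below rose by more. Its normalized counts were 234.3, 275.4 and 265.5 in controls and 2045, 1864 and 1108 in knockouts, a 6.25-fold rise (log2 2.64 ± 0.24, adjusted p 8.23e-04). All knockouts lay far above all controls, with knockout 3 the lowest of them. Trpm2, a calcium-permeable cation channel gated by ADP-ribose, rose from 229.2, 57.88 and 199.5 to 934.1, 664.3 and 978.7, where control 2 was the low control. Without control 2 its log2 fold change was 1.98 in place of 2.60, and it was called in every fit that left a library out. Plekhh2 had the tightest values of the 12, with 355.7, 355.3 and 414.8 in controls and 1602, 1732 and 1502 in knockouts (4.29-fold, adjusted p 4.04e-04). The other rises were those of the histone genes H1f3 (log2 2.39), H2bc6 (2.24) and H4c8 (2.08), the Groucho-family corepressor Tle6 (2.32), Vwa5b1 (2.16), the NMDA receptor subunit Grin2c (2.08), the IGF-binding protein Igfbp4 (2.01), the adhesion protein Flrt1 (2.00) and the basement membrane protein Fras1 (1.97). Control 2 was the lowest control for Trpm2, Tle6, H2bc6, Grin2c, Flrt1, Fras1 and, by a narrow margin, Plekhh2, and the highest for Rcor2, H1f3 and Vwa5b1.

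**Figure D2:**
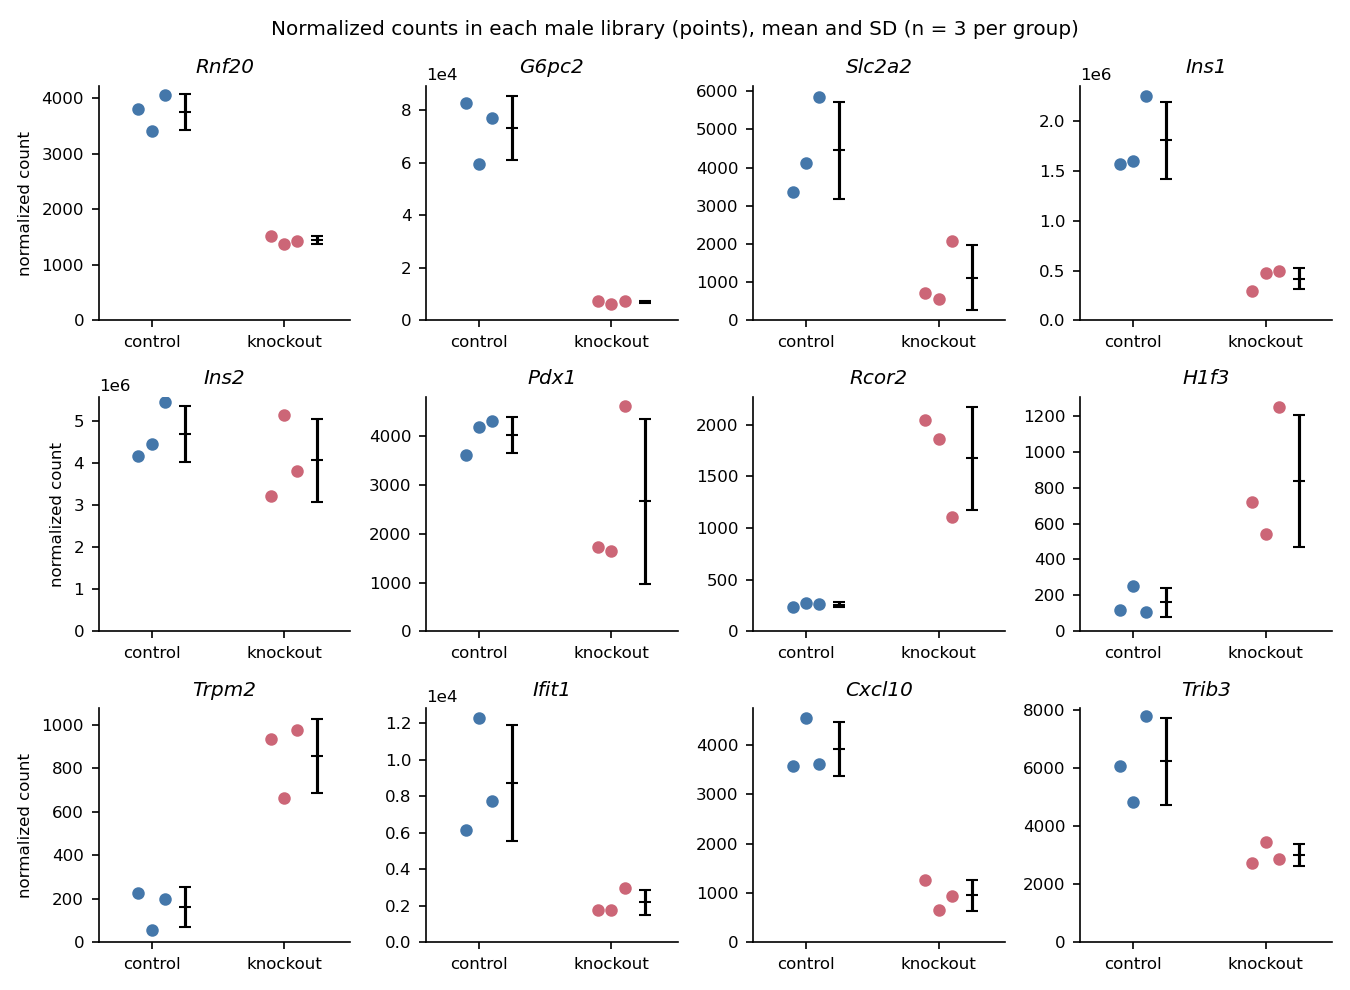
Normalized counts (linear axes from 0) of 12 genes in the 3 control libraries (blue) and the 3 knockout libraries (red), with the mean and SD of each group beside the points. Rnf20, G6pc2 and Ins1 separate cleanly, Ins2 overlaps, and knockout 3 stands apart for Slc2a2 and Pdx1.

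Genes by which mature beta cells take up and handle glucose fell as a group. Of 28 tested genes of glucose entry, phosphorylation and beta cell maturity, 16 were lower and 1 was higher, against 7.09% and 6.08% of all genes, and their median log2 fold change was -0.96. Without control 2 the count was 12 lower and 0 higher, and it ranged from 11 to 15 lower over the 6 fits that left a library out. Ins1, the mouse insulin gene that lacks an intron of the ancestral gene, had 1575110, 1602380 and 2258250 in controls and 294580, 474302 and 492560 in knockouts. That was a 4.36-fold fall (log2 -2.12 ± 0.24, adjusted p 0.00179) with a wide gap between the groups. Ins2, the ancestral insulin gene, overlapped between the groups at 4173440, 4464290 and 5454410 against 3229170, 5154930 and 3824680 (log2 -0.22, 95% interval -0.75 to 0.30, adjusted p 0.565). The coding sequences of the insulin genes are alike, and how reads that fit both were counted is not given in the sources used here. Ucn3, which encodes a maturity peptide, dropped 2.98-fold from 6383, 3557 and 5237 to 1413, 1652 and 1922. It kept its call whichever library was left out.

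Slc2a2, the main glucose transporter of mouse beta cells, was uneven among the knockouts. It had 3363, 4127 and 5857 in controls and 713.7, 561 and 2089 in knockouts, where knockout 3 lay between the other knockouts and the controls. Its adjusted p was 0.0357 over the 6 libraries, 0.119 without control 2 and 0.068 in edgeR. The prolactin receptor gene Prlr (log2 -1.36), Tmem215 (-2.16), Cox6a2 (-2.69) and the IGF receptor gene Igf1r (-0.98) also fell. Dlk1, an imprinted gene of the Notch ligand family, was the single gene of the list to rise, from 352.3, 516.9 and 771.5 to 1349, 1014 and 1250.

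The promoters of G6pc2 and Ins1 are printed because these were the beta cell genes with the largest falls among the fixed set that kept their call whichever library was left out. Each run is the 250 bases before the start site in RefSeq, GRCm38.p6, read 5' to 3', and both genes lie on the plus strand (G6pc2 chr2:69210823-69211072, Ins1 chr19:52264047-52264296). Capitals mark TAAT on either strand (written ATTA on the other), the core that homeodomain factors such as Pdx1 and Islet-1 are known to bind.
G6pc2: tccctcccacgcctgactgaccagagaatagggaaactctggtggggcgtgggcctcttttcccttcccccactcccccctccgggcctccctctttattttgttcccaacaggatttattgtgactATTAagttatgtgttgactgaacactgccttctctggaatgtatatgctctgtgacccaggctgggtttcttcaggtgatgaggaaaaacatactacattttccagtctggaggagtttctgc
Ins1: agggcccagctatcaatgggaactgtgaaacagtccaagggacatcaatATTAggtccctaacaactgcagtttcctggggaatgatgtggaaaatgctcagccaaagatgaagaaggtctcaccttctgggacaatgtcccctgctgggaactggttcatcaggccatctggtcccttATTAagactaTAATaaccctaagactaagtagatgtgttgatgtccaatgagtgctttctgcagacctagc
TAAT occurred 3 times in the Ins1 promoter, between 61 and 201 bases before the start, and 1 time in that of G6pc2. Such a short core is common: it stood in 45.3% of the 12618 promoters of tested genes and in 42.6% of those of genes called lower. In the maturity list it stood in 11 of 22 promoters with an entry, in 8 of 13 of called-lower members and in 3 of 8 of members that were not called. A match to these letters is not a measured binding site.

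Prohormone processing and granule genes fell alongside. Of 20 tested, 11 were lower and 1 higher, against 7.09% and 6.08% of all genes. Pcsk1, the convertase that makes the first cuts in proinsulin, went from 29091, 52376 and 37729 to 14986, 15261 and 17305 (log2 -1.29, adjusted p 0.00443). The groups did not overlap, and control 2 was the highest library. Vgf, a granin-like precursor, fell by 1.66, Scg3, a granin that anchors granule cargo, by 1.13, and Pam, the enzyme of peptide amidation, by 1.01 on the log2 scale. Cpd, a carboxypeptidase of the trans-Golgi, rose from 5468, 5946 and 5587 to 14683, 12180 and 13798 (2.39-fold). Without control 2 the list held 8 lower and 1 higher, without control 3 it held 7 lower, and without knockout 1 it held 5 lower.

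Other hormones did not move together. Sst, the hormone of delta cells, fell 2.44-fold from 64537, 54885 and 84558 to 21195, 27837 and 34764 (adjusted p 0.00602). Its call held whichever library was left out and was lost with quantile scaling (log2 -1.03, adjusted p 0.0655). Gcg, the hormone of alpha cells, stood at 884888, 552513 and 480211 in controls and 636416, 623155 and 609518 in knockouts, inside the range of the controls, with a log2 fold change of 0.01 (adjusted p 0.976) whose sign differed between settings. Ppy, the hormone of PP cells, had 225578, 116752 and 245179 against 122448, 101631 and 149624, and was not called (adjusted p 0.198), but was called without control 2 (log2 -0.93, adjusted p 0.0258). Among delta, PP and epsilon cell genes 4 of 17 fell and 1 rose, against 7.09% and 6.08% of all genes. The opioid precursor Pdyn (log2 -2.34) and the delta cell factor Hhex (-1.02) fell with Sst and Rbp4. Hhex kept its call in 3 and Rbp4 in 2 of the 6 fits that left a library out. The calcium-sensing receptor gene Casr rose, a call kept in 1 of the 6 fits that left a library out. The count of the list was 6 lower and 3 higher without control 2, 2 lower and 0 higher without control 3 or knockout 1, and 3 lower and 0 higher without knockout 3. Alpha cell genes gave 3 higher and 1 lower of 19, against 6.08% and 7.09% of all genes. The rises were those of Peg10 (log2 1.58), the glutamine transporter Slc38a5 (0.86) and the amino acid transporter Slc7a2 (0.79). Without control 3 that list held 1 higher and 0 lower, without knockout 1 it held 0 of each, and Slc38a5 and Slc7a2 were each called in 2 of the 6 fits that left a library out.

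Transcription factors of beta cells moved in both directions. Of 29 tested, 5 rose and 2 fell, against 6.08% and 7.09% of all genes. The count was 2 and 1 without control 2, 2 and 3 without control 1 and 3 and 1 without control 3. It was 1 and 0 without knockout 1, 6 and 1 without knockout 2, and 2 and 5 without knockout 3. Glis3, a zinc finger factor needed for insulin expression, had 1589, 1519 and 1857 in controls and 3887, 3132 and 3771 in knockouts (2.17-fold, adjusted p 0.00209). Rfx3 (log2 1.06), Nkx6-1 (0.68), Foxo1 (0.51) and Tshz1 (0.50) rose as well, the last 3 with calls lost without control 2. Each of these 3 kept its call in 1 of the 6 fits that left a library out. St18 fell from 7469, 11973 and 7161 to 3561, 2386 and 4708 (log2 -1.33). Insm1 fell by 0.50, a call also lost without control 2 and kept in 1 of those 6 fits. Pdx1 had 3607, 4173 and 4295 in controls and 1723, 1637 and 4611 in knockouts, so that knockouts 1 and 2 lay below and knockout 3 above all controls, and it was not called (log2 -0.77, adjusted p 0.22). Mafa, a late activator of insulin, overlapped fully (log2 0.05, adjusted p 0.858), and Neurod1 overlapped in part (-0.61, adjusted p 0.0826). Neurod1 was called in DESeq2 (adjusted p 0.0259), and in 2 of the 6 limma fits that left a library out.

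Islet-1 itself, encoded by Isl1, was at 5704, 7694 and 6357 in controls and 4060, 4274 and 5689 in knockouts. Knockout 3 almost reached the lowest control, and the difference was not called in limma-trend (log2 -0.50, 95% interval -0.87 to -0.13, adjusted p 0.0806). Isl1 was called in DESeq2 (adjusted p 0.032), and in 1 of the 6 limma fits that left a library out. Its cofactor Ldb1 went from 3900, 3139 and 4315 to 5809, 7041 and 4970 (log2 0.65, adjusted p 0.0335). The Ldb1 call was lost without control 2 (adjusted p 0.077) and kept in 2 of the 6 fits that left a library out. Of 23 tested genes of the complex, 6 rose and 1 fell, against 6.08% and 7.09% of all genes. However, 4 rose without control 2, 3 without control 1, 4 without knockout 2 and 1 without knockout 1. The corepressors Cbfa2t2 and Cbfa2t3 rose by 0.85 and 0.75, the acetyltransferase Crebbp by 0.66 and the Ldb1 stabilizer Ssbp2 by 0.66, whereas the LIM-only protein Lmo1 fell by 1.38 on the log2 scale. Crebbp kept its call in 3 and Ssbp2 in 2 of the 6 fits that left a library out. The Ssbp2 call was lost in limma without control 2 (adjusted p 0.051).

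Genes of excitation rose more often than they fell. Of 37 ion channel and calcium genes, 13 were higher and 2 lower, against 6.08% and 7.09% of all genes, with a median log2 fold change of 0.52. The count was 12 and 3 without control 2, 8 higher without control 3 and 6 higher without knockout 1. Itpr1, the calcium release channel of the endoplasmic reticulum, had 1290, 991.9 and 883.4 in controls and 2861, 2470 and 2712 in knockouts (log2 1.36, adjusted p 0.00196). The groups were well apart. The potassium channel gene Kcnh6 rose by 1.24 on the log2 scale, and Trpm2 as given above. The exceptions were Kcnj11, the pore of the channel that ATP closes, which fell 2.19-fold from 4683, 5762 and 5848 to 2288, 2634 and 2502, and the sodium channel gene Scn3a (log2 -1.09). Ryr2, the ryanodine receptor, was scarce, with 14.33, 35.92 and 11.48 against 110.7, 63.44 and 88.26, and was called in 1 of the 6 fits that left a library out.

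The exocytosis machinery split by gene. Of 39 tested, 11 fell and 4 rose, against 7.09% and 6.08% of all genes. The count was 8 and 5 without control 2, 7 and 3 without control 3 and 7 and 2 without knockout 1. It was 11 and 6 without knockout 2 and 8 and 2 without knockout 3. The synaptotagmins Syt4 and Syt5 fell by 2.21 and 2.11 on the log2 scale, the granule GTPase Rab3d by 1.68 and the vesicle glycoprotein Sv2a by 1.22. Syt4 had 10764, 14987 and 11102 in controls and 2571, 2375 and 2978 in knockouts (adjusted p 4.04e-04). The SNARE gene Snap25 rose 2.09-fold from 5258, 5475 and 6183 to 11576, 10653 and 13092, the calcium sensor Doc2b by 1.44, Sv2b by 1.08 and the active zone protein Rims2 by 0.65 on the log2 scale. Rims2 kept its call in 2 of the 6 fits that left a library out. Paralogues thus took opposite directions, Sv2a falling and Sv2b rising, with no overlap between the groups for either.

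Of the 40 lists, that with the largest share of called genes was the interferon response, the antiviral programme that type I and type II interferons switch on through STAT and IRF factors. Of 42 tested members 29 were lower and 0 were higher, against 7.09% lower among all genes, and the median log2 fold change was -1.10. Without control 2 there were 27 lower, and between 21 and 31 in the fits that left out 1 library. Ifit1, which binds viral RNA caps, had 6145, 12304 and 7760 in controls and 1802, 1768 and 3003 in knockouts (3.94-fold, adjusted p 0.00383). Rsad2, the antiviral enzyme viperin, had 9072, 19354 and 10770 against 2855, 2992 and 4460. Control 2 was the highest library for both, and the knockouts lay below every control. In the limma fit without control 2 both were called lower (adjusted p 0.00889 for Ifit1 and 0.0061 for Rsad2). The chemokine gene Cxcl10 was even among the controls, at 3584, 4558 and 3628, and fell 4.24-fold to 1271, 648.9 and 940.3 (adjusted p 0.00173). The RNA sensor gene Ddx60 (log2 -2.23) and the GTPase gene Mx2 (-1.96) completed the 5 largest falls. Antigen presentation genes, which interferons also induce, gave 7 lower and 0 higher of 21, against 7.09% and 6.08% of all genes. The count was 6 lower without control 2, and 5 to 9 with 1 library left out. Those that fell included Tap1, the peptide transporter (log2 -1.03), the immunoproteasome subunit Psmb8 (-0.93), B2m (-0.83), H2-Q4 (-0.83) and H2-K1 (-0.75). The H2 class I genes have near-identical copies, so reads may have been split among them. Lymphocyte and macrophage markers, of which 0 of 16 and 0 of 16 were called, took 0.00124% to 0.0126% and 0.00793% to 0.0185% of reads in controls and 0.00156% to 0.00649% and 0.00988% to 0.0126% in knockouts.

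Promoters of 5 interferon genes are shown because the members moved together. They are the called-lower members with the largest falls whose promoter holds the interferon-stimulated response element core, a choice made after their values were seen. The core searched was GAAA and GAAA with NN between them, on either strand, and capitals mark it in the 250 bases before the start in RefSeq, GRCm38.p6 (Ddx60 chr8:61927837-61928086 and Ifit1 chr19:34640639-34640888 and Ifit3 chr19:34583279-34583528 on the plus strand, Cxcl10 chr5:92348890-92349139 and Rsad2 chr12:26456453-26456702 on the minus strand).
Ddx60: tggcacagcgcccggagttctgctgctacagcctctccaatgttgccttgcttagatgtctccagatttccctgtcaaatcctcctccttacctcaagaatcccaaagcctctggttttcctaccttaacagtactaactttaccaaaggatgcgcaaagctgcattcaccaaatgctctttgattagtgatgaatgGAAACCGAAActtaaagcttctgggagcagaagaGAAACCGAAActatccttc
Cxcl10: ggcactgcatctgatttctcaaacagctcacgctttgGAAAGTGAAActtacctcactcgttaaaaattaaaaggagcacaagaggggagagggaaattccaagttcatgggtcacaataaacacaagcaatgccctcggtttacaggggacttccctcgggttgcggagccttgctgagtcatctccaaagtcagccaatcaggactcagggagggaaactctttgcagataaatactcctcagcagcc
Ifit1: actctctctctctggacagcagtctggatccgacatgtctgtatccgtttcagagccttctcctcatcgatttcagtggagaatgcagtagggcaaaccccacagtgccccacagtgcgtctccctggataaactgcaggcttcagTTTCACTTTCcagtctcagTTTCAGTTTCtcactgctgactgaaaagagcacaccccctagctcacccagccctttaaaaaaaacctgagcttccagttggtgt
Rsad2: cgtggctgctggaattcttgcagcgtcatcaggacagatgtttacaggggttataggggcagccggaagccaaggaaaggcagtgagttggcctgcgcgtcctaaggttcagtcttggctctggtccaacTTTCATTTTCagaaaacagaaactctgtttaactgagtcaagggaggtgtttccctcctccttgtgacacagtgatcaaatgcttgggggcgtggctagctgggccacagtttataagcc
Ifit3: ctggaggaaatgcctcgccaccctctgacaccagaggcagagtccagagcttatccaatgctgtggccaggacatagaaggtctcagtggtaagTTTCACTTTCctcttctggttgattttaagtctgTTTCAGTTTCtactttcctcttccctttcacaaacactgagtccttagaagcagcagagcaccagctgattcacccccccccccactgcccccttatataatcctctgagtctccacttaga
Ddx60, Ifit1 and Ifit3 held the core 2 times, and Cxcl10 and Rsad2 held it 1 time. It stood in 3.22% of the 12618 promoters of tested genes and in 5.34% of those of all genes called lower. In the interferon list it stood in 17 of 31 promoters with an entry, in 13 of 22 of called-lower members and in 4 of 9 of members that were not called. A match is a run of letters and not a measured binding site.

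Genes of the integrated stress response, in which Atf4 raises amino acid synthesis and import when translation initiation is slowed, were lower as well. Of 31 tested members 17 fell and 1 rose, against 7.09% and 6.08% of all genes, with a median of -0.81 on the log2 scale. Without control 2, 14 fell and 0 rose, and without knockout 1, 10 fell. Atf5, a factor under Atf4, went from 12763, 12699 and 16313 to 3913, 4086 and 5940 (log2 -1.60, adjusted p 0.00173). Ppp1r15a, which restores translation by directing the phosphatase to eIF2, had 4152, 3984 and 5155 against 1580, 1944 and 1218 (2.83-fold). Psph and Shmt2, enzymes of serine and glycine synthesis, fell by 1.37 and 1.17, Pycr1, of proline synthesis, by 1.13, and the pseudokinase Trib3 by 1.02 on the log2 scale. In each of these the groups did not overlap and the call held in all 6 fits that left a library out. Slc7a5, an amino acid importer, was the rise, from 10736, 10272 and 13720 to 16976, 19870 and 15668. Its call was lost without control 2 and kept in 2 of the 6 fits that left a library out.

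The C/EBP-ATF response letters TGATGNAA, searched on either strand, stood in 2.58% of promoters of tested genes and in 6 of 27 of the stress list. Of its called-lower members 2 of 17 held them and of those not called 4 of 10. Both called members are printed with the match in capitals, again as 250 bases before the start in GRCm38.p6 (Chac1 chr2:119350992-119351241 plus strand, Pycr1 chr11:120643749-120643998 minus strand).
Chac1: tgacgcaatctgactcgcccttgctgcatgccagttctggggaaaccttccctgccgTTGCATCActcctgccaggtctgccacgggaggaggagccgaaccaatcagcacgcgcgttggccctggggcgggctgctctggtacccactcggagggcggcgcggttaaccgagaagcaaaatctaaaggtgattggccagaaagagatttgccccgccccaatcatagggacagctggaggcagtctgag
Pycr1: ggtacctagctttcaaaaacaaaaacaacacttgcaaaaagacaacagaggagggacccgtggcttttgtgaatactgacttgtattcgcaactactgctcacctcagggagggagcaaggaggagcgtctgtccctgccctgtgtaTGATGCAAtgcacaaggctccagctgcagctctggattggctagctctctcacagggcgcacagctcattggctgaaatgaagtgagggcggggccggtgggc

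Genes of the endoplasmic reticulum, where proinsulin folds, fell in 13 of 36 cases and rose in 2, against 7.09% and 6.08% of all genes. The count was 8 and 0 without control 2, 7 and 1 without control 3 and 5 and 1 without knockout 1. Dnajb9, a cochaperone of BiP, had 12243, 18763 and 17956 in controls and 3548, 3179 and 3357 in knockouts (4.78-fold, adjusted p 4.04e-04). Selenos, of the degradation complex, fell by 1.45, the folding factor Manf by 1.20, Sec61b, of the translocation channel, by 1.04 and Xbp1, the transcription factor of this response, by 1.03 on the log2 scale. Derl3 rose by 1.29 and Canx by 0.47. Canx was called in 1 of the 6 fits that left a library out, and not in edgeR (adjusted p 0.0652). Among 31 glycolysis genes 9 fell and 2 rose, against 7.09% and 6.08% of all genes. The count was also 9 and 2 without control 2, but 5 and 0 without knockout 1 and 6 and 2 without knockout 3. Pfkp, a phosphofructokinase, fell 3.41-fold from 5310, 6981 and 6256 to 1670, 2002 and 1752, and the enzymes of the next steps, Pgk1 (log2 -1.33), Tpi1 (-1.31), Gapdh (-1.27) and Aldoa (-1.13), fell with it. Eno3, an enolase, and Ldhb, a lactate dehydrogenase subunit, rose by 0.58 and 0.81. Both calls were lost without control 1, knockout 1 or knockout 2, and each was kept in 2 of the 6 fits that left a library out.

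Antioxidant genes fell in 11 of 29 cases and rose in 0, against 7.09% and 6.08% of all genes, with 7 lower without control 3 and 4 without knockout 1. The zinc-binding metallothioneins Mt1 and Mt2 were among them, but control 3 was low for both, with Mt1 at 44496, 26556 and 18703 in controls and 7638, 9983 and 3147 in knockouts. The Mt1 call was lost without control 2 (adjusted p 0.118) and kept in 2 of the 6 fits that left a library out. Srxn1, which repairs peroxiredoxins (log2 -1.33), and Gpx4, which reduces lipid peroxides (-0.91), were steadier. Of the nuclear-encoded respiratory chain 7 of 63 genes fell and 0 rose, against 7.09% and 6.08% of all genes. Among those that fell were Cox6a2 and the complex III subunit Uqcrq (log2 -0.84), and 3 to 5 fell when 1 library was left out. Of 11 mitochondrially encoded protein genes 0 were called, although 10 had a positive log2 fold change. Reads of mitochondrially encoded genes were 1.33% to 1.73% of each control library, 2.69% and 2.75% of knockouts 1 and 3, and 1.69% of knockout 2. Cytosolic ribosomal protein genes fell in 5 of 79 cases and rose in 0, against 7.09% and 6.08% of all genes. In the best expressed quintile of protein-coding genes 16.21% were lower and 13.73% higher. Without knockout 1, 0 ribosomal protein genes fell. Sterol and fatty acid genes gave 3 in each direction of 34, near the shares of all genes, and 0 to 2 higher and 1 to 3 lower with 1 library left out.

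Immediate early genes, which activity and cAMP induce within minutes, gave 7 lower and 0 higher of 30, against 7.09% and 6.08% of all genes. Between 5 and 10 were lower with 1 library left out. Nr4a2 had 2012, 1972 and 1903 in controls and 260, 404.2 and 212.3 in knockouts (6.95-fold, adjusted p 6.67e-04). Fos (log2 -2.29), Nr4a3 (-1.82) and Fosl2 (-1.51) fell with Nr4a2 and Crem, with knockout 2 the highest knockout for all 5. Knockout 2 also had the lowest share of 18S ribosomal RNA reads among the knockouts. Cell cycle genes gave 10 lower and 1 higher of 50, against 7.09% and 6.08% of all genes, with 12 and 1 without control 2, 6 lower without control 3 and 4 without knockout 1, the last near the share of all genes. The D cyclins Ccnd1, at 2927, 2672 and 2022 against 877.7, 955.2 and 1155, and Ccnd2 (log2 -0.90), which drive beta cell entry into the cycle, fell whichever library was left out. The topoisomerase gene Top2a fell by 1.75 on the log2 scale, and the division marker Mki67 by 1.37, from 375.9, 397.2 and 310 to 166.1, 87 and 184.4. The Mki67 call was lost without control 2 and kept in 1 of the 6 fits that left a library out. Of 34 p53 target genes 4 fell and 2 rose, near the 7.09% and 6.08% of all genes, and 2 fell and 1 rose without knockout 1. The kinase gene Plk3 (log2 -2.33) and the stress-induced Sesn1 (1.68) were among them.

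Histone genes whose transcripts are normally made in S phase went the other way. Of 39 tested, 8 rose and 0 fell, against 6.08% and 7.09% of all genes, and 34 had a positive sign. The median log2 fold change was 1.49, or 1.04 without control 2, where 12 rose. H1f3, a linker histone, had 120.5, 253.5 and 109.1 in controls and 719.6, 542.8 and 1245 in knockouts (5.24-fold, adjusted p 0.00625), and H1f4 was alike at 97.77, 129.7 and 82.53 against 477.4, 331.7 and 834.5. H3c15 rose by 2.65, H2bc6 by 2.24 and H4c8 by 2.08 on the log2 scale. H3c2 was near the floor in controls, with 18 reads over the 3 libraries against 202 in knockouts. Most histone transcripts carry no poly(A) tail, the way RNA was selected for sequencing is not given in the sources used here, and clustered histone genes are close copies, so levels of single members are uncertain.

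Writers of histone H3 methylation rose in part. Among 23 enzymes and cofactors that methylate H3 at lysine 4 or 79, 6 rose and 0 fell, against 6.08% and 7.09% of all genes. The count was the same without control 2, whereas 3 rose without control 1 or control 3 and 2 without knockout 1 or knockout 3. Kmt2a had 4164, 5610 and 4347 in controls and 11010, 9054 and 11403 in knockouts (2.24-fold, adjusted p 0.00247), and Kmt2c had 3128, 3664 and 3298 against 9470, 7744 and 6954 (2.38-fold). The partners Mllt3 and Mllt10 rose by 1.12 and 0.51, and the H3K27 demethylase Kdm6a, a member of the Kmt2c complex, by 0.83. Kdm6a was called in 2 and Mllt10 in 1 of the 6 fits that left a library out. Elongation genes gave 3 in each direction of 28, against 7.09% lower and 6.08% higher among all genes, with Eaf1, Ell2 and Hexim1 lower and Setd2, Nelfcd and the FACT subunit Supt16 higher. Supt16 was likewise called in 1 of the 6 fits that left a library out. The higher count was 0 without knockout 1, 1 without control 3 and 6 without control 2, and 2 to 4 were lower with 1 library left out. Polycomb genes gave 3 higher and 1 lower of 27, against 6.08% and 7.09% of all genes, and 1 higher and 0 lower without knockout 1. The methyltransferase Ezh2 was the one that fell (log2 -1.07, adjusted p 0.0362), a call kept in 1 of the 6 fits that left a library out.

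Clock genes were called in 9 of 19 cases, 6 higher and 3 lower, against 6.08% and 7.09% of all genes. The count was the same without control 2. Dbp, an output factor of the clock, rose from 1150, 888.1 and 1312 to 4040, 4313 and 2498 (3.19-fold, adjusted p 0.0031). Its relative Tef (log2 1.29) and the repressors Per3 (1.21), Nr1d1 (1.18) and Nr1d2 (0.75) rose, and Nfil3, a repressor that competes with Dbp, the activator Npas2 and the repressor Cry1 fell by 1.82, 1.65 and 1.39. Between 5 and 7 clock genes were higher in the fits that left 1 library out. Insulin and IGF signalling genes gave 10 higher and 2 lower of 33, against 6.08% and 7.09% of all genes, with 4 higher without knockout 1. The FOXO genes Foxo6 (1.52) and Foxo3 (0.83), the adaptor Grb14 (1.24) and Rictor (0.95) rose, and Irs2 (-1.08) and Igf1r fell.

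Progenitor genes and genes normally kept silent in beta cells changed little as groups. Of 24 progenitor and dedifferentiation genes 2 rose and 2 fell, and of 36 disallowed genes 2 rose and 1 fell, against 6.08% and 7.09% of all genes. With 1 library left out, 0 to 3 of the first list and 1 to 3 of the second were higher. Pax4, a developmental factor of the beta lineage, was all but absent from the controls, with 0, 0 and 1.435 normalized counts, and had 54.36, 29 and 19.23 in knockouts (adjusted p 0.0398). It was called without control 2 (adjusted p 0.015) and in none of the other 5 fits that left a library out, where the adjusted p reached 0.287. The reads behind it were 2 over the controls and 109 over the knockouts. The serotonin receptor gene Htr1d rested on 4 reads in controls and 203 in knockouts (adjusted p 0.0118), and its call was lost in 3 of the 6 fits that left a library out. Tph1, the enzyme of serotonin synthesis, which pregnancy hormones raise in beta cells, had 9.271, 105.8 and 18.66 against 450.7, 239.2 and 269.2 (log2 3.47, adjusted p 0.0201), likewise with 3 of 6 calls lost. The serotonin and lactogen list as a whole gave 4 higher and 5 lower of 22, against 6.08% and 7.09% of all genes, with 1 higher without knockout 1 or knockout 3. Htr3a (log2 -2.56), Tnfrsf11b (-1.51), Prlr and the serotonin-pathway decarboxylase Ddc (-1.26) were among those that fell.

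**Figure D3:**
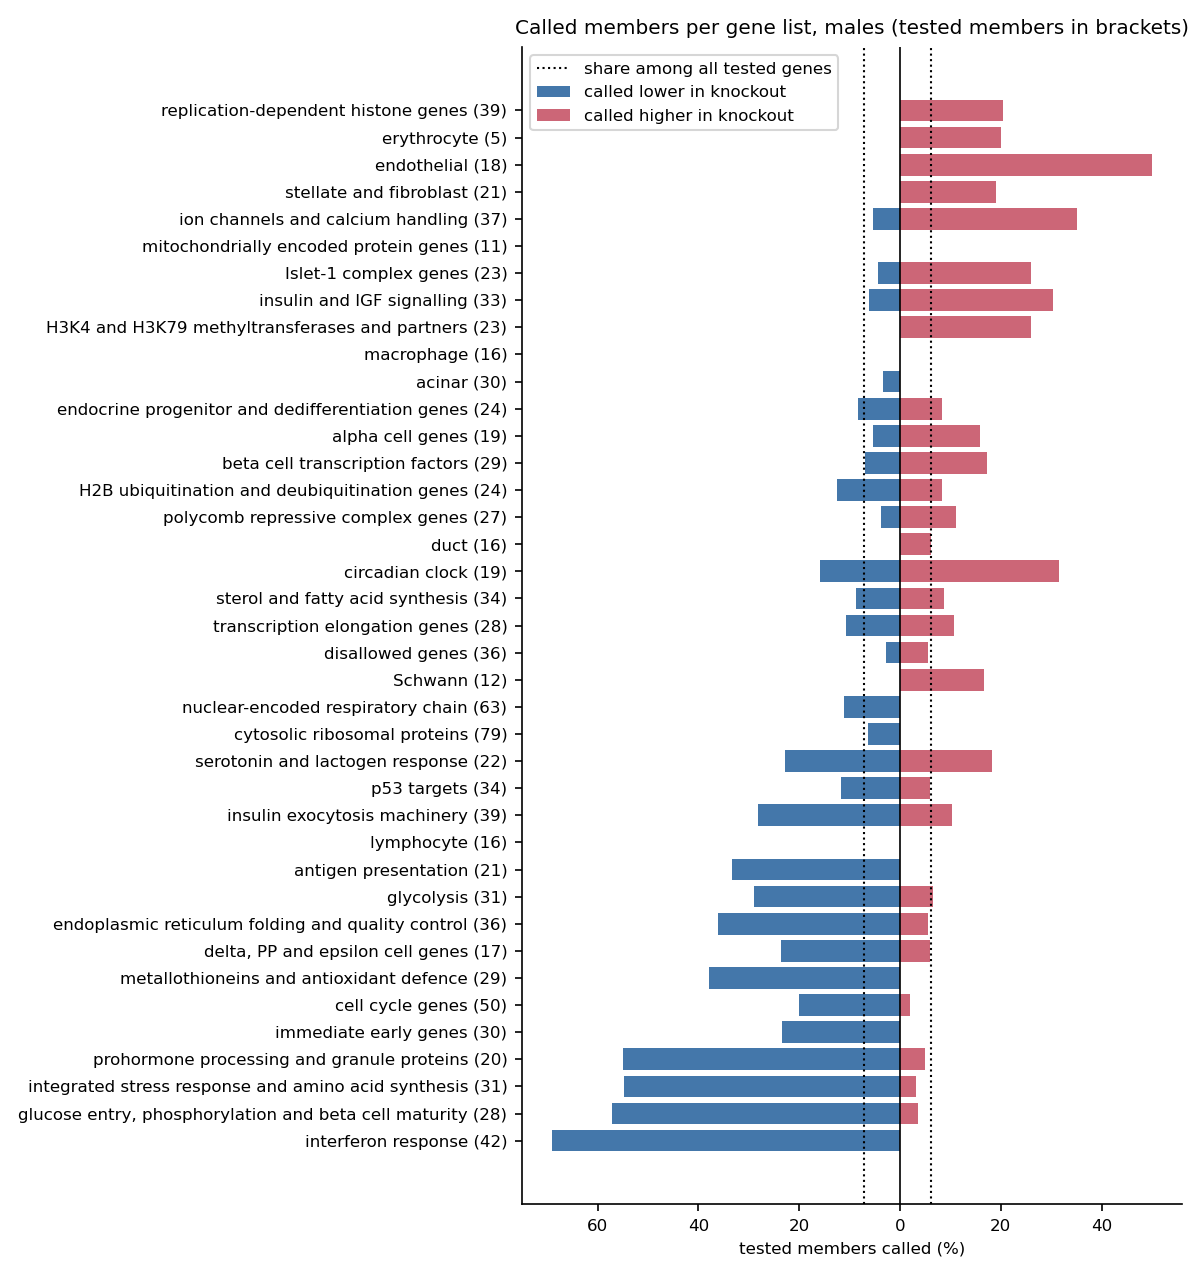
Share of tested members called lower (bars to the left) and higher (to the right) in male knockout islets for each gene list with 5 or more tested members, ordered by median log2 fold change, with tested members in brackets. Dotted lines mark 7.09% lower and 6.08% higher among all tested genes, and the interferon list has the longest bar to the left, with 29 of 42.

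Markers of other cells were also followed. Endothelial genes gave 9 higher and 0 lower of 18, against 6.08% and 7.09% of all genes. However, 3 of these genes were higher without control 2, 4 without control 3, 5 without knockout 1 and 2 without knockout 2 or knockout 3. Their summed share of reads was 0.0553% to 0.0639% in controls and 0.0855% to 0.114% in knockouts, with no overlap. Emcn and Kdr, surface proteins of capillary endothelium, rose by 1.18 and 0.91 on the log2 scale, calls that held whichever library was left out. Stellate and fibroblast genes gave 4 higher and 0 lower of 21, against 6.08% and 7.09% of all genes. Of this list, 2 were higher without control 2, 1 without control 3 and 0 without any 1 of the knockouts. Its summed share of reads was 0.0314% to 0.043% in controls and 0.0536% to 0.0607% in knockouts. Of 30 acinar genes 1 was called, Bhlha15, which fell, against 7.09% lower among all genes. The Schwann list gave 2 higher and 0 lower of 12, against 6.08% and 7.09% of all genes. Of its members, 4 had a positive and 8 a negative log2 fold change, with a median of -0.04. The GDNF family receptor gene Gfra3 was among those called higher, at 85.12, 177.6 and 83.96 against 776.9, 767.6 and 637 (6.63-fold, adjusted p 0.00196). The summed share of the list was 0.00545% to 0.00618% in controls and 0.00585% to 0.0107% in knockouts, with overlap. Duct and erythrocyte lists gave 1 higher each of 16 and 5, against 6.08% of all genes, the duct count being near that share. Macrophage, lymphocyte and adipocyte lists gave 0. The part that more vessel or stromal RNA had in the other results was not tested.

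The direction of change went with the length of the gene. Protein-coding genes were put into quintiles by their annotated span. In the shortest quintile, up to 8.28 kb, 1.88% of genes were higher and 12.55% lower, and in the longest quintile, from 73.96 kb, 16.28% were higher and 3.927% lower. The quintiles between them lay in order, and the values without control 2 were 2.182% and 12.12% for the shortest and 17.66% and 3.189% for the longest. Within the best expressed quintile of genes, 1.092% of the shortest were higher and 28.38% lower, against 34.75% and 5.66% of the longest. Over all spans, 13.73% of that quintile were higher and 16.21% lower, against 1.544% and 0.7385% of the least expressed quintile. The gene lists above were not matched for span or level, so the shares of all genes beside them account for neither. The part of span and level in the list counts was not tested. Well expressed long genes called higher whichever library was left out included the kinase Wnk1 (114.7 kb, log2 0.96), Fam120a (0.66), Prrc2b (0.93), the amyloid precursor gene App (0.63) and the cytokine receptor kinase Jak1 (0.78). Well expressed short genes called lower in the same way included Ins1 (1.18 kb), the granule peptide gene Iapp (log2 -1.89), Sst, Maged1 (-0.95), the G protein regulator Rgs4 (-1.74) and H2-K1.

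Taken per library, as the median deviation of the longest quintile minus that of the shortest, the values were -0.288, -0.046 and -0.268 in controls and 0.227, 0.0666 and 0.273 in knockouts. The groups did not overlap, but control 2 and knockout 2 were both near 0. Knockouts 1 and 3, which had the largest values, were the libraries with 4.31% and 4.17% of reads from 18S ribosomal RNA, and knockout 2 had 1.37%. The part that RNA selection or integrity had in this pattern was not tested. In the table for females the same quantity was -0.366, 0.002 and 0.111 in controls and 0.015, 0.083 and 0.137 in knockouts, with overlap.

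**Figure D4:**
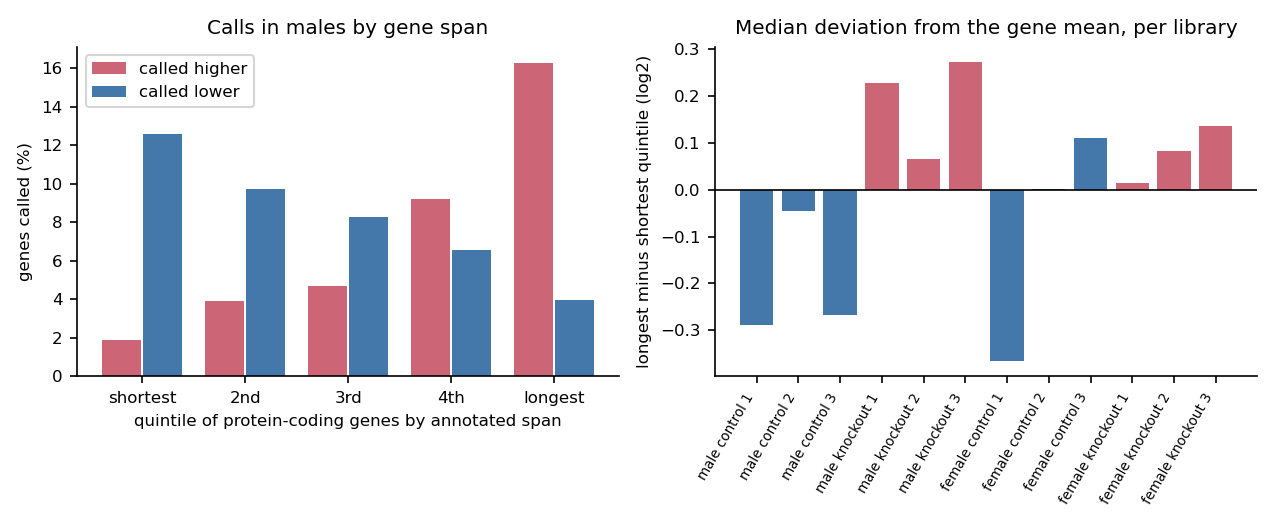
Left, the percentage of protein-coding genes called higher (red) or lower (blue) in male knockouts by quintile of annotated gene span. Right, for each library of both sexes, the median log2 deviation from the gene mean of the longest quintile minus that of the shortest, with controls in blue and knockouts in red. Male controls lie at or below -0.046 and male knockouts at or above 0.0666.

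The knockout effect in males was compared with that in females by an interaction term in a fit of all 12 libraries. The female groups had the same genotypes and tamoxifen, and each sex had been normalized in its own table, which leaves the difference between effects usable but not levels across sexes. Of 17330 genes tested in both sexes 19 (0.11%) were called, and 1409 had an unadjusted p under 0.05. In all 19 the male effect was the lower, all 19 were called lower in males, and 18 had a positive log2 fold change in females. The calls were fragile: 0 genes were called when any of male control 3, male knockout 1, male knockout 3, female control 2 or a female knockout was left out, 53 were called without male control 1, and 25 in edgeR.

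Several of the 19 belong to the interferon and stress groups described above. The stress list held 4 of its 31 members (Trib3, Ppp1r15a, Pycr1 and Shmt2), antigen presentation 2 of 21 (Tap1 and H2-Q4), the interferon list 1 of 42 (Cxcl10) and the granule list 1 of 20 (Tmed3). Cxcl10 had 1484, 1665 and 2848 in female controls and 2918, 2474 and 2179 in female knockouts, overlapping, so that the male effect of -2.08 stood against 0.39 in females (difference -2.47, adjusted p 0.031). Trib3 had 2838, 1643 and 2331 in female controls and 3838, 3793 and 3455 in female knockouts, where every knockout was above every control, the reverse of the males. Pycr1 likewise had 1028, 677.9 and 930.1 against 1228, 1284 and 1209. Over whole lists the median log2 fold change of interferon genes was -1.10 in males and 0.06 in females, and that of stress genes -0.81 and 0.11. For the maturity list it was -0.96 and -0.95, and for the histone list 1.49 and 0.99. The difference between lists was not tested.

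**Figure D5:**
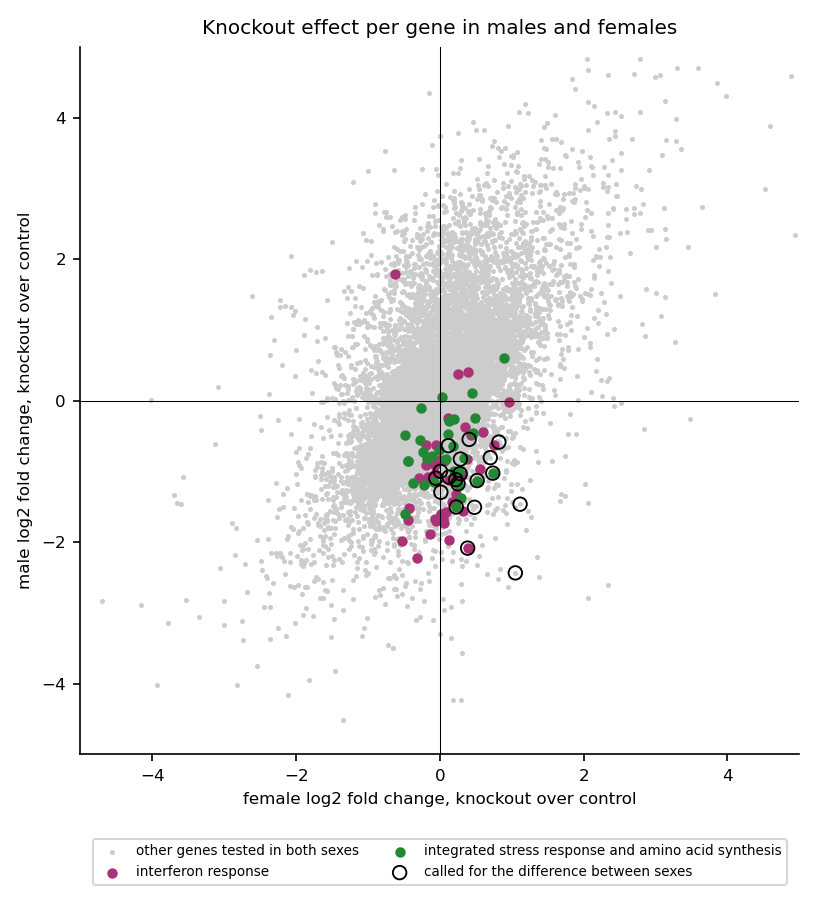
Log2 fold change of knockout over control in females (x) and males (y) for each gene tested in both sexes, with 17 genes beyond the axis limit of 5 not shown. Interferon genes are magenta, stress and amino acid genes green, and the 19 genes called for the difference between sexes are ringed. All 19 ringed genes lie below 0 for males.

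The sparse control touched weakly expressed genes most. The 1596 tested genes without reads in control 2 had a median mean of 18.1 normalized counts, and 1527 of them had reads in both other controls. Their median log2 fold change was 1.76 with control 2 and 0.30 without it, and 26 were called, all of them higher, against 13.2% of all tested genes. Without control 2, 81 of them were called, against 12.8% of all. The best expressed of these genes were also uneven between controls 1 and 3: Ighg3, an immunoglobulin chain, had 654.9 in control 1 and 0 in control 3, Jchain 439.9 and 39.47, and Cyp1b1 350.6 and 20.09. The noncoding 4930429F24Rik was an exception, with 110.4, 0 and 250.5 in controls and 301.5, 205.7 and 205.4 in knockouts, and it was not called (adjusted p 0.432).

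The authors' deposited table called 3733 genes at an adjusted p below 0.05, of which 3707 were among the genes tested here. It held all 2372 genes called here, which were 63.5% of its calls. It also called 3 genes whose reads came from male control 2 alone, the immunoglobulin segment Igkv3-1, Pate9 and the T cell receptor segment Trbj1-7.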

How the data were processed

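Bulk RNA of hand-picked islets was sequenced in 12 libraries, of which 6 were male. The labels gave the groups and the replicate numbers. Per the submitters' processing notes, the tools named are FastQC 0.11.9, Trim Galore 0.6.7, STAR 2.7.3a and featureCounts, and the build is GRCm39. Strand setting and annotation release are not given in the sources used here. The signal values deposited by the authors were gene counts divided by 1 size factor per library, in a separate table per sex, and whole reads were recovered from 100% of values within 0.001. The log2 fold changes and the p-values deposited by the authors came from DESeq2 per the file headers and serve here for 1 comparison of calls.

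Repeated rows of a gene (73) were dropped, 50 genes had no name, and a symbol shared by several genes went to the one with the highest level. Genes with a mean of at least 10 were tested as log2(value + 1) with limma 3.58.1 (trend and robust), genotype as the sole term, at a Benjamini-Hochberg adjusted p below 0.05. The design had foreseen this test for normalized values and edgeR for counts. The interaction used all 12 libraries. The scripts were tested on simulated data. The precision was set by 3 libraries per group.

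The members, gene lists and tests were chosen with earlier results of these data known. Genes were named by rule: 17 fixed genes, the 12 largest changes per direction at or above the median level that were also called without control 2, up to 5 per list and direction, the genes called for a sex difference, and the 6 best expressed genes at 0 in control 2. The long and short genes, the promoters of interferon and stress genes and Chac1 were chosen after their values were seen. Promoters came from RefSeq GRCm38.p6, matched by symbol, and no coordinates were moved between builds. Alternatives were other pseudocounts, filters, scalings, edgeR, DESeq2, array weights, a fit over both sexes, each library left out, a replicate block and an acinar covariate. Values of some genes named by these rules are not reported here.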

Additional observations from a re-analysis of the deposited data

Results flagged for a closer look

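The knockout effect differed between the sexes for 19 genes by the interaction of sex and genotype (limma, adjusted p below 0.05), and in each the male effect was the lower. The differences, male minus female on the log2 scale, were -3.48 for Steap1, a metalloreductase, -2.58 for Apol9b, -2.47 for the chemokine Cxcl10, -1.99 for the guanylate-binding protein Gbp5, -1.76 for Trib3, -1.73 for Ppp1r15a and -1.65 for Pycr1. They were -1.51 for Niban1, -1.43 for Shmt2, -1.41 for Cyb5r1, -1.34 for Serpini1, -1.31 for the peptide transporter Tap1 and -1.31 for Phf10. The smallest were -1.21 for H2-T22, -1.11 for H2-Q4, -1.04 for Tmed3, -1.01 for Trafd1, -0.95 for Gtpbp2 and -0.75 for Ogfr.

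Steap1 had 274.8, 487 and 465.7 normalized counts in the male control libraries against 84.02, 78.84 and 57.68 in the male knockouts, and 114.9, 140 and 182.2 in female controls and 383.7, 232.3 and 295 in female knockouts. Groups were apart in both sexes, in opposite directions. Apol9b was alike, at 323.6, 357.3 and 428.4 against 125.5, 193 and 96.13 in males and 146, 169.5 and 249.3 against 408, 406 and 382.6 in females. None of the 19 was called with the replicate block, as stated below.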

How the results depend on the processing

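The count of called genes (2372) stayed within 1.5 times under other pseudocounts, filters and scalings, edgeR, DESeq2, the acinar covariate and the replicate block (2062). It was 6112 with array weights, which gave control 2 a weight of 0.1942, and 4396 in the fit over 12 libraries. Genes higher (1095) were 1684 in DESeq2, 3063 with array weights and 2185 over 12 libraries, and genes lower (1277) were 3049 and 2211 in the last 2. With 1 library left out, the counts ranged from 814 to 2298 in all, 313 to 1166 higher and 501 to 1132 lower, and Rnf20 from -1.448 to -1.322, always called. The causes were not tested. The 19 sex differences became 0 with the replicate block and 0 to 53 with 1 of the 12 libraries left out. Deviations of same-numbered libraries correlated at 0.121, 0.00966 and 0.153, the first and last being the highest of the 9 pairings. Control 2 correlated best with knockout 3 by a narrow margin (0.0144). Since the second pair was near 0 and the labels name no shared animal or day, the numbers were not treated as pairs.

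Reversed signs occurred in 2 uncalled genes: Mafa (-0.17 with array weights, -0.042 to 0.194 with 1 library left out, the negative value without knockout 2) and Gcg (-0.0075 with TMM, -0.047 in edgeR, -0.037 in DESeq2, -0.0095 with the acinar covariate, and -0.17 to 0.274 with 1 library left out, negative without control 2, control 3 or knockout 1). Of 204 named called genes, 0 reversed, 94 lost their call without knockout 1, 39 without control 2 and 7 in edgeR. Genes below a mean of 10 and small effects are beyond the reach of 3 libraries per group.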
